A study of Mus musculus with 6 samples.

Results

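Interleukin-6 (IL-6) family genes were followed in a cell model of myotonic dystrophy type 1 (DM1) as 10 of the 55421 genes in the count table. They were the ligands Il6, Lif, Il11 and Clcf1, the receptor chains Il6ra, Il6st, Lifr and Osmr, the transcription factor Stat3 and the inhibitor Socs3. The members were found by gene symbol in the table of each library and joined by gene identifier to the counts. All 10 passed the filter on low counts, which left 18140 genes to be tested.

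RNA-seq covered 3 control and 3 miR-322/-503 libraries, all made on day 4 of differentiation from C2C12, a mouse myoblast line that forms myotubes when serum is lowered. Both groups had been stably transfected with a GFP gene with 200 CTG repeats in its 3' UTR, transcribed as CUG repeats (CUG200), as the model of DM1. The control cells additionally carried the empty vector, and the miR-322/-503 cells carried a plasmid that overexpressed the microRNAs miR-322 and miR-503. The comparison asks which transcripts differed when these microRNAs were overexpressed in the DM1 cells. Each group was 1 stable line under drug selection (G418 and puromycin), and the sources used here do not say whether a line was a clone or a pool, so an effect of the microRNAs and a difference between the lines cannot be told apart. The study's methods state biological replicates for its assays in general, and the labels do not say that these libraries came from separate cultures, so the p-values measure the spread between these libraries, which may be technical. Cells without the long repeat were not analysed here.

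IL-6 family cytokines share the signalling chain gp130, encoded by Il6st. IL-6 and IL-11 first bind their own receptors (Il6ra, Il11ra1), whereas LIF acts through a pair of Lifr and gp130, and oncostatin M in the mouse mainly through a pair of Osmr and gp130. The bound chains activate JAK kinases and the transcription factor STAT3, which induces Socs3, and the SOCS3 protein binds gp130 and the JAKs and stops the signal. In skeletal muscle, IL-6 and LIF are made by the muscle cells themselves and act on myoblasts, and transcript levels do not measure the phosphorylation of STAT3.

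The mature microRNAs are shown first because their seeds (bases 2 to 8, in capitals) set which letters were searched in the family's transcripts. The sequences, from RefSeq (GRCm38.p6), lie at chrX:53054306-53054327 (miR-322-5p) and chrX:53054027-53054049 (miR-503-5p), both on the minus strand. Their seeds differ only in base 8.
mmu-miR-322-5p: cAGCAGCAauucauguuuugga
mmu-miR-503-5p: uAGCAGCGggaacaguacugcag

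The letters complementary to the seed of miR-322-5p (TGCTGCT) occurred 6 times in the longest 3' UTRs of 4 family genes (GENCODE M21, GRCm38). They are printed with 11 bases on each side and the 7 matching letters in capitals, 5' to 3' on the strand of the gene, because they show which members could pair with the seed.
Lif, chr11:4272294-4272322, plus strand: ctcctttgcacTGCTGCTctccctctttc
Il6ra, chr3:89867856-89867884, minus strand: tctccagcctcTGCTGCTagtgtagttgg
Il6st, chr13:112508940-112508968, plus strand: cagactgcaagTGCTGCTacgtaagcagg
Il6st, chr13:112509682-112509710, plus strand: gtcagtgcctgTGCTGCTgtatgtccatg
Lifr, chr15:7192167-7192195, plus strand: ggagctttcccTGCTGCTcatgagtctcg
Lifr, chr15:7193361-7193389, plus strand: ggagtttagagTGCTGCTcaccccaccct

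The same letters occurred in 24.4% of the 13416 tested genes with a 3' UTR. The 3' UTRs of Il6ra, Lifr and Il6st were long, at 7102, 6320 and 5641 bases, and that of Lif had 3180. No match was found in Il6, Il11, Clcf1, Osmr, Socs3 or Stat3, whose 3' UTRs had 922 to 3701 bases. The letters complementary to the whole seed of miR-503-5p (CGCTGCT), present in 4.9% of the tested genes, occurred in none of the 10. Only matches to a whole seed were searched. The matches printed above all contain GCTGCT, which is complementary to the part of the seed that both microRNAs share. A match is a description of the letters and not a measured site of binding.

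Socs3 and Il11 were the members that fell most, and the 250 bases before their annotated start sites are shown for the letters of a STAT motif (TTCNNNGAA, a palindrome, so that both strands are covered) and an AP-1 motif (TGACTCA or TGAGTCA, each the reverse complement of the other). Capitals mark the matches, and the sequences run 5' to 3' on the strand of the gene, which is the minus strand for both (RefSeq, GRCm38.p6). The second of the start sites annotated for Il11 is shown. Both windows lie inside the gene spans given below, which begin further upstream, and so do the windows of Osmr and Lifr.
Socs3, chr11:117969367-117969616: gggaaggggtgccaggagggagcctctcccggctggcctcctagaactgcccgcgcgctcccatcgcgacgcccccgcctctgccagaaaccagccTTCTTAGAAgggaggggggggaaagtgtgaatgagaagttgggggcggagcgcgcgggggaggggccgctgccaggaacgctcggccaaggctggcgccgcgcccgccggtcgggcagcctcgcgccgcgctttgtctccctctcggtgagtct
Il11, chr7:4778142-4778391: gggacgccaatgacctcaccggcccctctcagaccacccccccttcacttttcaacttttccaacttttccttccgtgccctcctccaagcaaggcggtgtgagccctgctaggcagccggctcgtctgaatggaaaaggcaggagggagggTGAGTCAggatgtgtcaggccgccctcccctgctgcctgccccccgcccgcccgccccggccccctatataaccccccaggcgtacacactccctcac

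The STAT letters in Socs3 (TTCTTAGAA) began 154 bases before the start site, and the AP-1 letters in Il11 (TGAGTCA) began 98 bases before it. AP-1 letters also occurred once in the window of Lif and once in that of Il6, at -228 and -249 from the start site, and neither motif was found in the windows of Il6ra, Il6st, Lifr, Osmr or Stat3 or in the other Il11 window. Clcf1 had no entry. Of 32851 windows of 300 bases (250 before to 50 after a start site) of all genes, 8.3% held the STAT letters and 5.2% the AP-1 letters.

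Before the comparison, the labels and libraries were checked. Counts of the genes of the overexpressed microRNAs were low in this library type. Mir322 had 1, 7 and 2 estimated counts in the control libraries (in the order of their replicate numbers) against 17, 0 and 3 with miR-322/-503 overexpression. Mir503 had 1, 1 and 2 against 6, 4 and 5. Apart from the 17 of Mir322, all these counts lay below the level of 3 read pairs (12 counts). The overexpression could thus not be checked in these libraries. Total estimated counts lay between 73532084 and 92157388 per library, and about 4 of these counts stood for 1 read pair. Markers of skeletal muscle (Myod1, Myog, Mymk, Mymx, Des, Ckm, Acta1, Tnnt3, Myh3) were present in every library, with a summed level of 3480 to 3840 TPM in the control and 4280 to 4460 TPM in the miR-322/-503 group. Of these 9, 5 were higher and 1 (Myog) was lower past the test described below, against 13.2% and 15.5% of all tested genes. The groups thus also differed in muscle markers, and the part of this in the results on the family was not tested. By RT-qPCR, at days its text does not name, the study reports Myod1, Myog, Mymx and Mymk as upregulated with the microRNAs. In these libraries Myod1 and Mymx rose, Myog fell (log2 fold change -0.74, edgeR, adjusted p = 0.000665) and Mymk did not pass (-0.41, edgeR, adjusted p = 0.0796). Leukocyte markers (Ptprc, Cd68, Adgre1, Csf1r, Cd3e), of interest because leukocytes make IL-6 family cytokines, summed to 3.28 to 5.74 TPM in the control and 5.71 to 6.49 TPM in the miR-322/-503 group, with Adgre1 and Cd3e at 0 in every library and Ptprc at 0 in 5 of 6. Fibroblast markers (Pdgfra, Thy1, Dpt, Pi16) summed to 33.9 to 34.6 TPM against 33.9 to 39.2 TPM, but single genes moved in opposite directions, with Pdgfra lower (log2 fold change -0.74, edgeR, adjusted p = 0.000627) and Dpt higher (0.94, adjusted p = 0.00295). Endothelial markers (Pecam1, Cdh5, Kdr, Tek) summed to 0.423 to 0.524 TPM against 1.58 to 2.35 TPM, nearly all from Tek, and adipocyte markers (Adipoq, Plin1, Fabp4) were at or near 0 throughout.

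Across the family, 6 of 10 genes passed the test, 1 higher and 5 lower in the miR-322/-503 cells. Il6ra rose, and Socs3, Il11, Osmr, Lif and Lifr fell, whereas Il6, Clcf1, Il6st and Stat3 did not pass. The test was edgeR's quasi-likelihood test, and a gene passed at an adjusted p (Benjamini-Hochberg over all tested genes) below 0.05. Among all tested genes, 13.2% passed as higher, 15.5% as lower and 28.8% in either direction. A gene was called where its log2 fold change also lay beyond 1 in size, the cut-off of the study. By that rule, Socs3 and Il11 were called lower (2 of 10, against 5.29% of all tested genes) and no member was called higher (4.59% of all tested genes, 9.87% in either direction). The CPM values (estimated counts scaled to the normalized library size in edgeR) of the groups did not overlap for 7 of 10 members, against 45.1% of all tested genes. The median log2 fold change of the 10 genes was -0.21 and that of all tested genes -0.01. In RNA from whole cultures, fewer cells of a type and less RNA per cell cannot be told apart.

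**Figure D1:**
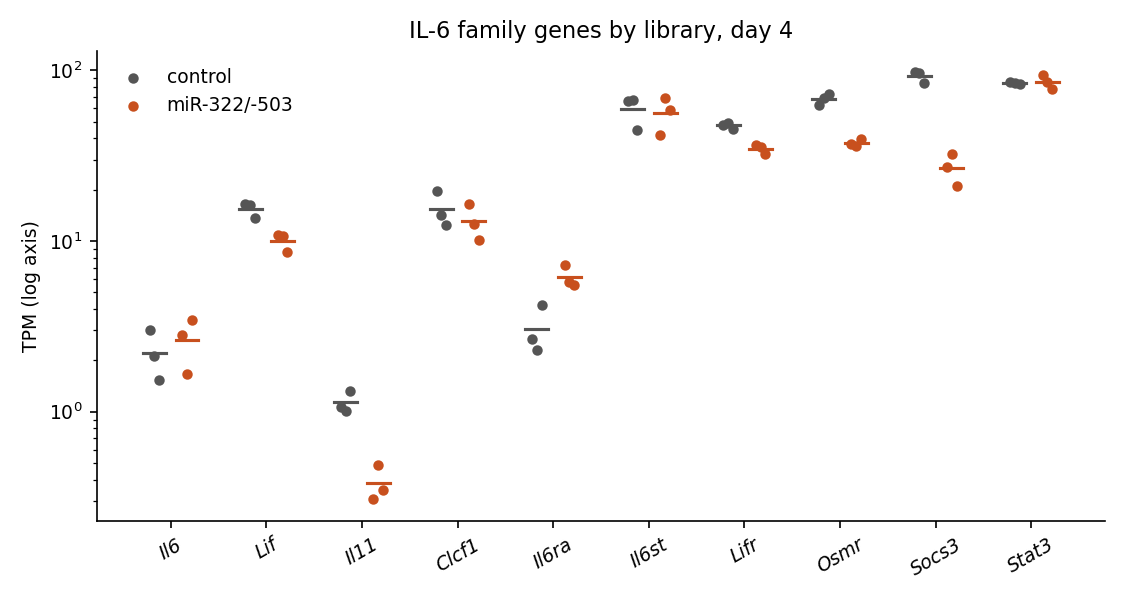
Level of each of the 10 genes in each library, in TPM on a log axis, with control libraries in grey, miR-322/-503 libraries in orange (replicates 1 to 3 from left to right) and a bar at the mean of each group of 3. Socs3 stands at 84.0 to 97.8 TPM in the control and 20.9 to 32.4 TPM in the miR-322/-503 cells, Il11 and Osmr are also apart, and the points of Il6, Clcf1, Il6st and Stat3 overlap.

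Levels of different genes were compared in TPM, a unit per length of transcript. In the control cells, Socs3 had the highest mean level of the family (92.7 ± 7.56 TPM, SD, n = 3), followed by Stat3 (84.5 ± 0.797 TPM), and the ranges of these neighbours overlapped. The signalling chains came next, with Osmr at 68.3 ± 4.89 TPM, Il6st at 59.3 ± 12.4 TPM and Lifr at 47.6 ± 2.21 TPM, where Osmr and Lifr each overlapped with Il6st. Among the ligands, Clcf1 (15.5 ± 3.74 TPM) and Lif (15.4 ± 1.56 TPM) overlapped and lay below all these chains. The lowest levels were those of Il6ra (3.06 ± 1.01 TPM), Il6 (2.22 ± 0.735 TPM, overlapping with Il6ra) and Il11 (1.14 ± 0.171 TPM). Thus the shared chain was present at many times the level of the private IL-6 receptor chain.

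In the miR-322/-503 cells the order changed at the top. Stat3 was first at 85.9 ± 8.05 TPM (SD, n = 3) and Il6st second at 56.5 ± 13.5 TPM, and their ranges did not overlap. Socs3, at 26.8 ± 5.74 TPM, ranked 5 instead of 1, behind Osmr (37.4 ± 1.75 TPM) and Lifr (34.7 ± 2.22 TPM), and its range overlapped with that of Lifr. The order of the remaining members was the same, with the ranges of Clcf1 and Lif (8.62 to 10.8 TPM) overlapping, and with mean levels of 13.1 TPM for Clcf1, 6.16 TPM for Il6ra, 2.64 TPM for Il6 and 0.381 TPM for Il11. The ranges of Il6ra and Il6, which overlapped in the control, no longer did.

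Among the ligands, Il11 and Lif fell, and Il6 and Clcf1 were not past the test. Positions of the genes are given on GRCm38. Il11, a cytokine that acts through Il11ra1 and gp130 (chr7:4772373-4782859, minus strand, ENSMUSG00000004371), had 1.09, 1.05 and 1.39 CPM in replicates 1 to 3 of the control, against 0.315, 0.507 and 0.386 CPM in replicates 1 to 3 of the miR-322/-503 group. Every miR-322/-503 library lay below every control library, and all lay above the level of 3 read pairs (0.13 to 0.163 CPM per library). This was a log2 fold change of -1.55 (SE 0.30, 95% interval -2.24 to -0.85, edgeR's quasi-likelihood test, adjusted p = 0.00705), a 2.92-fold lower level. These values rested on 29 to 117 estimated counts per library, so Il11 had the fewest counts of all members. Its fold is sensitive to how low values are treated, with a log2 fold change of -0.63 in limma on log2(TPM + 1), where it stayed past the test and was no longer called.

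Lif encodes leukemia inhibitory factor, which acts through Lifr and gp130 (chr11:4257557-4272514, plus strand, ENSMUSG00000034394). It had 27.1, 26.0 and 23.5 CPM in the control cells, compared with 20.4, 17.6 and 16.5 CPM in miR-322/-503 cells. The groups did not overlap, and the gap between the lowest control and the highest miR-322/-503 library was narrow. The mean fell from 25.5 ± 1.85 to 18.1 ± 2.03 CPM (SD, n = 3), with a log2 fold change of -0.49 (SE 0.11, 95% interval -0.74 to -0.24, edgeR, adjusted p = 0.012).

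Il6, the founding cytokine of the family (chr5:30013114-30019981, plus strand, ENSMUSG00000025746), had 1.83, 1.59 and 1.56 CPM in the control libraries, against 1.52, 1.19 and 2.62 CPM with miR-322/-503 overexpression. The miR-322/-503 libraries lay on both sides of the control, with replicate 3 the highest and replicate 2 the lowest of all. Its log2 fold change of 0.10 was not past the test (SE 0.31, edgeR, adjusted p = 0.859), its 95% interval ran from -0.63 to 0.82, and it was -0.29 without miR-322/-503 replicate 3. A change of the size seen for Lif would lie within that interval.

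Clcf1 encodes a further ligand of the family (chr19:4214238-4223490, plus strand, ENSMUSG00000040663). It had 26.5, 21.1 and 20.4 CPM in the control cells, compared with 23.5, 19.8 and 17.2 CPM in miR-322/-503 cells, and the groups overlapped. Its log2 fold change was -0.17 (SE 0.15, 95% interval -0.51 to 0.18, edgeR, adjusted p = 0.456), and it ranged from -0.29 (without miR-322/-503 replicate 1) to -0.04 (without control replicate 1) when single libraries were left out. A second gene model on the same strand, AC109138.7, shares 9134 bases with it and had at most 49 estimated counts. Whether reads were split between Clcf1 and this model was not tested.

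Among the receptor chains, Il6ra rose, Osmr and Lifr fell, and Il6st was not past the test. Il6ra, the private receptor of IL-6 (chr3:89864059-89913196, minus strand, ENSMUSG00000027947), had 9.08, 8.05 and 10.2 CPM in the control libraries, against 17.6, 18.4 and 17.3 CPM with miR-322/-503 overexpression. All miR-322/-503 libraries lay well above all control libraries. Il6ra had a log2 fold change of 0.96 (SE 0.11, 95% interval 0.71 to 1.22, edgeR, adjusted p = 0.000559), a 1.95-fold higher level just under the size needed for a call. Without control replicate 3, the highest control library, it was 1.05 and would be called. An antisense gene, Gm42809, overlaps Il6ra and had at most 7 estimated counts.

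Osmr encodes the oncostatin M receptor chain (chr15:6813577-6874969, minus strand, ENSMUSG00000022146). It had 135, 148 and 158 CPM in the control cells, compared with 75.4, 82.4 and 86.2 CPM in miR-322/-503 cells. Each miR-322/-503 library was far below each control library. The mean fell from 147 ± 11.7 to 81.3 ± 5.48 CPM (SD, n = 3), with a log2 fold change of -0.85 (SE 0.08, 95% interval -1.04 to -0.66, edgeR, adjusted p = 0.000224).

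Lifr, the LIF receptor chain (chr15:7090614-7197489, plus strand, ENSMUSG00000054263), had 167, 174 and 181 CPM in the control libraries, against 146, 147 and 144 CPM with miR-322/-503 overexpression. The groups did not overlap, and the miR-322/-503 libraries were nearly level with each other. The log2 fold change was the smallest among the members that passed, at -0.26 (SE 0.05, 95% interval -0.39 to -0.13, edgeR, adjusted p = 0.0109). In limma on TPM it was larger, at -0.45 with a pseudocount of 1 and -0.46 with 0.1.

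Il6st, which encodes the shared chain gp130 (chr13:112464070-112510086, plus strand, ENSMUSG00000021756), had 283, 300 and 183 CPM in the control cells, compared with 176, 295 and 275 CPM in miR-322/-503 cells. Within each group 1 library was low (control replicate 3 and miR-322/-503 replicate 1) and the remaining libraries were close to each other. For Il6st the log2 fold change was -0.04 (SE 0.24, edgeR, adjusted p = 0.929), with a 95% interval of -0.60 to 0.52, and leaving out single libraries moved it between -0.23 and 0.16. A change of Il6st as large as that of Lifr was therefore not detectable in these libraries.

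Among the intracellular members, Socs3 fell and Stat3 was not past the test. Socs3, the feedback inhibitor of gp130 signalling (chr11:117966079-117970047, minus strand, ENSMUSG00000053113), had 129, 130 and 113 CPM in the control libraries, against 35.5, 42.8 and 29.7 CPM with miR-322/-503 overexpression. The highest miR-322/-503 library was far below the lowest control library. The log2 fold change was -1.79 (SE 0.13, 95% interval -2.10 to -1.48, edgeR, adjusted p = 7.31e-05), a 3.45-fold lower level and the largest change among the members. Socs3 was also the only member whose change exceeded a log2 fold change of 1 in a direct test against that size (glmTreat, adjusted p = 0.00207).

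Stat3, the transcription factor that IL-6 family receptors activate (chr11:100885098-100939540, minus strand, ENSMUSG00000004040), had 148, 149 and 142 CPM in the control cells, compared with 166, 162 and 155 CPM in miR-322/-503 cells. In CPM its groups did not overlap but lay close together, and in TPM they overlapped. The log2 fold change was 0.14 (SE 0.06, 95% interval 0.01 to 0.27), and in edgeR's quasi-likelihood test the p of 0.0413 became an adjusted p of 0.11. In limma on TPM the log2 fold change was 0.019. Stat5a, on the opposite strand, shares 72 bases with Stat3.

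**Figure D2:**
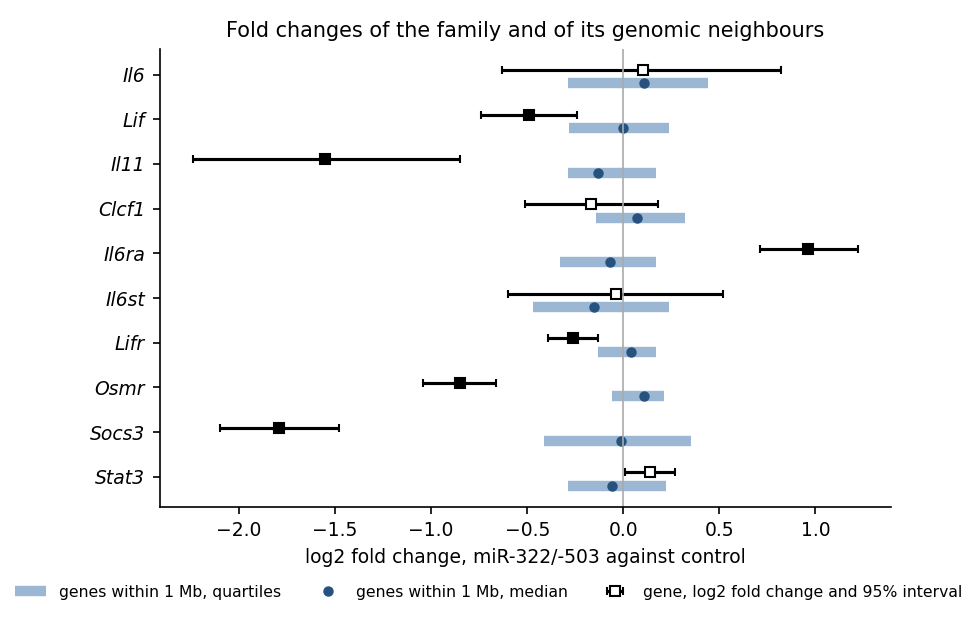
Log2 fold change of each of the 10 genes (miR-322/-503 against control, squares, filled where the adjusted p was below 0.05) with its 95% interval, above the median (dot) and quartiles (bar) of the tested genes within 1 Mb on each side. The squares of Socs3, Il11, Osmr, Lif, Lifr and Clcf1 lie left of the bar of their neighbours (that of Clcf1 at its very edge) and that of Il6ra lies right of it, while the medians of the bars lie between -0.15 and 0.11.

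The genes around each member were used to see whether a member stood apart from its region. The 25 tested genes within 1 Mb of Socs3 had a median log2 fold change of -0.01, and none was lower than Socs3. Around Il11, the median of 41 genes was -0.13, and 1 was lower than Il11. Around Il6ra, the median of 76 genes was -0.07, and 2 were higher than Il6ra. Osmr and Lifr are neighbours on chromosome 15, each within the window of the other. The median of the tested genes was 0.11 around Osmr, also within 250 kb. Around Lifr it was 0.04 over 13 genes, 1 of them lower than Lifr. Within 250 kb of Lifr only 2 genes were tested, Osmr itself at -0.85 and another at 0.21, so their median of -0.32 says little about the region. The neighbours of the remaining members had medians between -0.15 (Il6st) and 0.11 (Il6), and that of Il6st turned to 0.22 over the 5 genes within 250 kb.

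Receptor pairs were compared within each library as log2 ratios of TPM + 0.1, which removes what the library has in common. The ratio of Osmr to Lifr was 0.38, 0.48 and 0.68 in the control libraries, against 0.01, 0.02 and 0.29 with miR-322/-503 overexpression. The groups did not overlap, so Osmr, which was above Lifr in each control library, was closer to level with it in the miR-322/-503 libraries, and the difference in log2 ratio was -0.41. The ratio of Osmr to Il6st was -0.07, 0.05 and 0.69 in the control libraries, against -0.18, -0.93 and -0.58 with miR-322/-503 overexpression, a difference of -0.79 in log2 ratio, also without overlap. For both ratios the two-sided exact permutation test gave p = 0.1 (adjusted p = 0.167 over 5 ratios), which is the smallest p that 3 against 3 libraries can give.

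In TPM, ratios to Il6st of the remaining receptors overlapped between the groups. The log2 ratio of Lifr to Il6st was -0.29 ± 0.26 in the control and -0.67 ± 0.41 in the miR-322/-503 cells (SD, n = 3, exact permutation p = 0.3). This difference of -0.38 ranged from -0.62 without miR-322/-503 replicate 1 to -0.23 without control replicate 3, and was -0.22 from CPM. That of Il6ra to Il6st was -4.26 ± 0.76 in the control and -3.16 ± 0.55 in the miR-322/-503 cells (SD, n = 3, exact permutation p = 0.3), and control replicate 3 lay within the range of the miR-322/-503 libraries. Taken from CPM, the ratio of Il6ra to Il6st did not overlap between the groups (difference 1.0 in log2 ratio, exact permutation p = 0.1). Both ratios carried the spread of Il6st itself.

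Socs3 was set against Stat3, the factor that induces it. In linear TPM, Socs3 had 1.15, 1.13 and 1.01 times the level of Stat3 in the control libraries, against 0.29, 0.377 and 0.27 times that level with miR-322/-503 overexpression. The inhibitor was thus level with or above Stat3 in each control library and far below it in each miR-322/-503 library. The difference in log2 ratio was -1.82 (exact permutation p = 0.1, adjusted p = 0.167), and it stayed between -1.97 and -1.73 when single libraries were left out.

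**Figure D3:**
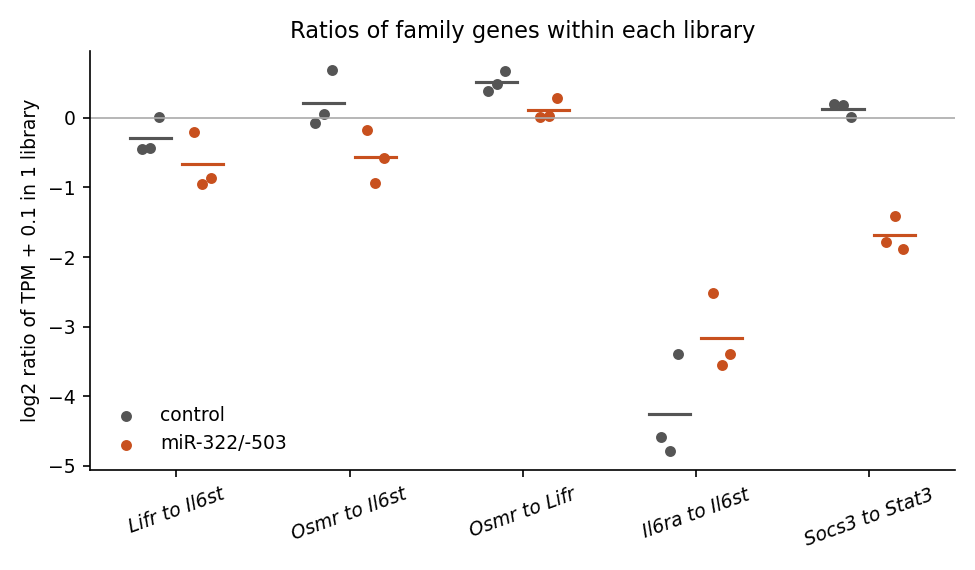
Log2 ratio of TPM + 0.1 of pairs of family genes within each library, with control libraries in grey, miR-322/-503 libraries in orange and a bar at the mean of each group of 3. The groups are apart for Osmr to Il6st, Osmr to Lifr and Socs3 to Stat3 (means of 0.13 and -1.69) and overlap for Lifr to Il6st and Il6ra to Il6st.

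The other genes of the pathway were taken from lists written from general knowledge. Of 67 such genes, 58 could be tested, and 7 rose and 15 fell, with 2 called higher and 7 called lower. Over all tested genes, the shares to set beside these and the counts of each list were 13.2% higher and 15.5% lower past the test, and 4.59% and 5.29% called. The median log2 fold change of the 58 genes was -0.08. Among those called lower, Il27ra, Gab1 and Junb lie on chromosome 8 in regions whose median was also lowered.

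Of 7 other ligands of the family, Osm, Ebi3 and Il31 had no count in any library, and Il27 had 0, 0 and 0 counts in the control libraries, against 15, 5 and 8 with miR-322/-503 overexpression. The remaining 3 were tested, 1 fell and none rose. Their median log2 fold change of -1.01 is the value of Ctf2, which had at most 38 estimated counts and did not pass (edgeR, adjusted p = 0.168). Ctf1, which encodes cardiotrophin-1, another ligand of Lifr and gp130, fell from 9.97 ± 1.51 to 4.15 ± 0.629 CPM (SD, n = 3), with a log2 fold change of -1.27 (SE 0.17, edgeR, adjusted p = 0.00118). Cntf, the ciliary neurotrophic factor, had a log2 fold change of 0.02 (edgeR, adjusted p = 0.966).

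Of the 4 other receptors of the family, all were tested, 2 fell and none rose. Il11ra1, the private receptor of IL-11, had 15.1, 16.6 and 15.5 CPM in the control libraries, against 5.42, 6.31 and 5.88 CPM with miR-322/-503 overexpression. The log2 fold change was -1.42 (SE 0.10, edgeR, adjusted p = 5.28e-05), so that the ligand Il11 and its receptor were both lower. Near-identical copies named Il11ra2 are listed with at most 38 estimated counts, against 442 to 1372 for Il11ra1, and reads may have been split between them. Il27ra, the private receptor chain of IL-27, fell from 2.69 ± 0.321 to 0.473 ± 0.163 CPM (SD, n = 3), with a log2 fold change of -2.49 (SE 0.28, edgeR, adjusted p = 0.000605), which was -1.17 in limma on log2(TPM + 1). It lies in a stretch of chromosome 8 where the 68 tested genes within 1 Mb had a median log2 fold change of -0.81, and 2 of them were lower than Il27ra. Cntfr and Il31ra were each at 0 in 1 or more libraries, and neither passed.

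Of 14 kinases, STATs and adaptors, 13 were tested (Stat4 had no counts), 1 rose and 3 fell, with a median log2 fold change of -0.13. Gab1, a docking adaptor that links gp130 to the MAP kinase and PI3 kinase branches, fell from 62.6 ± 1.04 to 29.9 ± 2.0 CPM (SD, n = 3), with a log2 fold change of -1.07 (SE 0.07, edgeR, adjusted p = 3.47e-05). It was the only one called, and its 7 tested neighbours on chromosome 8 had a median log2 fold change of -0.58. Jak2 and Shc1 fell by 0.67 and 0.32 on the log2 scale, and Ptpn11, which encodes the phosphatase SHP2, rose by 0.26. Jak1, the main kinase of gp130, had a log2 fold change of -0.13 and Tyk2 of -0.14, and neither passed, nor did Stat5a or Stat5b.

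Of 14 negative regulators of JAK-STAT signalling beside Socs3, all were tested, 4 rose and 1 fell, with a median log2 fold change of 0.14. Socs6, which belongs to the same family as Socs3 and acts mainly on receptor tyrosine kinases, had 13.7, 12.1 and 14.1 CPM in the control cells, compared with 33.7, 32.6 and 37.1 CPM in miR-322/-503 cells. Its log2 fold change was 1.37 (SE 0.09, edgeR, adjusted p = 4.96e-05), opposite in sign to that of Socs3. Socs2, Socs7 and Pias2 rose by 0.37, 0.42 and 0.53, and Socs5 fell by 0.23 on the log2 scale. Socs2, Socs5, Socs7 and Pias2 did not pass glmTreat. Beside that, the rise of Socs2 was lost without miR-322/-503 replicate 3 (edgeR, adjusted p = 0.0522) and in limma on log2(TPM + 0.1), and that of Socs7 in limma on either TPM scale. The fall of Socs5 was lost in 7 further alternatives, among them the removal of each library other than control replicate 3. Socs1, which shares a kinase inhibitory region with Socs3, had 1.55 ± 0.253 CPM in the control and 2.08 ± 0.484 CPM in the miR-322/-503 cells (SD, n = 3, edgeR, adjusted p = 0.241).

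Of 28 genes reported as STAT3 targets, 24 were tested, 2 rose and 8 fell, with a median log2 fold change of -0.13, and 14 did not pass. Fos and Junb, subunits of the transcription factor AP-1, had the largest falls, of 3.72 and 2.04 on the log2 scale. Around Junb, which also lies on chromosome 8, the median log2 fold change of 68 tested neighbours was -0.86, and 7 of them were lower than Junb. Cebpd, an acute-phase transcription factor named here after its values were seen, fell from 15.5 ± 1.84 to 6.72 ± 0.448 CPM (SD, n = 3), with a log2 fold change of -1.21 (SE 0.12, edgeR, adjusted p = 0.000279). Bcl3, an atypical IkappaB protein, went the other way, from 3.45 ± 0.446 to 8.56 ± 0.404 CPM, with a log2 fold change of 1.31 (SE 0.13, edgeR, adjusted p = 0.000317). Ccnd1, Ier3, Birc5, Il4ra and Pim3 fell by 0.46 to 0.79 on the log2 scale, Klf4 rose by 0.26, and Myc (-0.30), Mcl1 (-0.09), Pim1 (-0.51) and Timp1 (-0.17) were not past the test. Pim1 passed without control replicate 3 (adjusted p = 0.021 in edgeR) and in limma on log2(TPM + 1), and Myc passed with the replicate number as a block (adjusted p = 0.0473 in edgeR). Neither the fall of Pim3 (adjusted p = 0.041 in edgeR) nor the rise of Klf4 passed glmTreat. Beside that, the fall of Pim3 was lost in 8 alternatives. The rise of Klf4 was lost in 4, including the removal of control replicate 2 or miR-322/-503 replicate 2 alone. Most of these genes respond to other pathways too, so the list is not a measure of STAT3 activity.

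**Figure D4:**
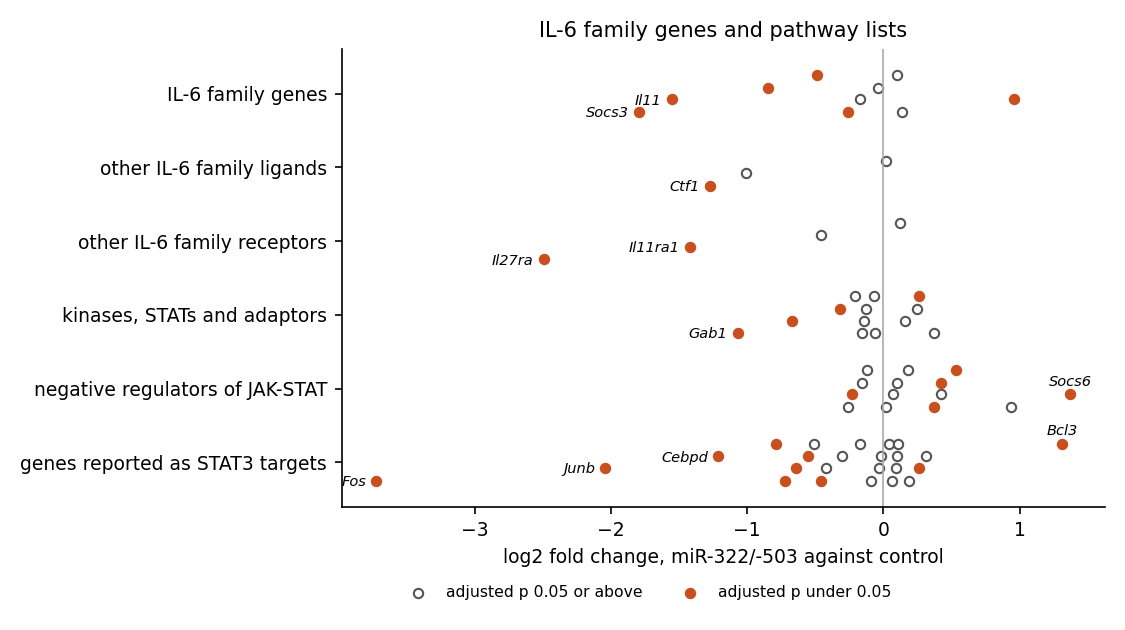
Log2 fold change (miR-322/-503 against control) of each tested gene of the family and of the 5 pathway lists, orange where the adjusted p was below 0.05 and open otherwise, with the called genes named. Called genes lie mostly to the left, from Gab1 at -1.07 to Fos at -3.72, and Socs6 and Bcl3 are called to the right.

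Genes with a pattern like that of Socs3 were sought among 9971 genes of at least 10 CPM in a group, by the root mean square difference of log2 CPM, centred on the control mean, over the 6 libraries. The nearest were Fbln1 (0.096), which encodes an extracellular matrix glycoprotein, Col4a2 (0.10), a chain of basement membrane collagen, Egr1 (0.11), an immediate-early transcription factor, Dok4 (0.12), a docking adaptor, and Ass1 (0.13), an enzyme of arginine synthesis. Their log2 fold changes lay between -1.89 and -1.72, next to the -1.79 of Socs3. The nearness is a description over 6 libraries in 2 groups, and the fall itself sets most of it.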

How the data were processed

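Total RNA of 3 control and 3 miR-322/-503 libraries was sequenced as RNA-seq. As the submitters' processing notes and the study's methods state, reads were trimmed (Trim Galore), mapped to the GRCm38 genome (HISAT2) and counted per gene (StringTie) by the authors. Versions, gene annotation and strand setting are not given in the sources used here. The deposited matrix gives unnormalized estimated counts, rounded to whole numbers, 1 value per gene and library. For each library, StringTie's own gene table was also deposited, with coverage, FPKM and TPM. Coverage served only to find that 1 read pair gave about 4 counts, and FPKM was not tested.

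Genes were kept with filterByExpr and scaled by TMM in edgeR 4.0.16 (R 4.3.3), CPM values were taken at TMM-normalized library size, and groups were compared with glmQLFit and glmQLFTest and Benjamini-Hochberg adjustment over 18140 genes. SE is the size of the log2 fold change over the square root of F, and 95% intervals use edgeR's degrees of freedom. No pair of replicates was a copy (chi-square per degree of freedom 14.8 to 21.3 on counts per read pair). Same-numbered libraries of the groups had correlations of 0.0218 to 0.097, so the numbers were not taken as pairs. The floor of 3 read pairs covers counting error only, since no molecular identifiers are described. The scripts were tested on simulated data.

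The members and gene lists were chosen with earlier results of these data known, so the family is not independent evidence of its own direction. Named genes are the 10 members, in each other list the 3 called genes with the largest fold change, the 5 genes nearest to Socs3, and Mir322 and Mir503. Genes named beyond these were chosen after their values were seen. A few listed genes are not reported here and were left out of the counts. Of 55421 gene identifiers, 55154 were in GENCODE M21, whose coordinates and 3' UTRs (longest of at least 50 bases) were used. Of the 10 members, promoters of 9 matched in RefSeq. Alternatives were DESeq2 1.42.0, RLE size factors, other count filters, glmTreat, a replicate block, limma 3.58.1 on log2(TPM + 1) and log2(TPM + 0.1), each library left out, other pseudocounts and CPM for ratios, and 250 kb windows. Counts per read pair were added after the data were seen.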

Additional observations from a re-analysis of the deposited data

How the results depend on the processing

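Of the members, Socs3 passed the test in 15 of 15 alternatives (log2 fold change -1.93 to -1.67), and Lif, Il11, Il6ra, Lifr and Osmr passed in 14 of 15, all but glmTreat, a test of whether the log2 fold change exceeds 1 in size. Under glmTreat, 0 members were past the test as higher and 1 as lower, and 1 was called lower. It left 0 lower genes in the list of other ligands, 0 higher and 0 lower among kinases, STATs and adaptors, 1 higher and 0 lower among negative regulators, and 0 higher and 2 lower among STAT3 targets. Over all tested genes it passed, and called, 396 higher and 530 lower, against 2401 and 2817 passed and 832 and 959 called in the reported test. The fewer passes follow from the larger change that glmTreat asks for. Limma on log2(TPM + 1) called 392 higher and 569 lower genes and 1 member lower (Il11 was not called), with 0 lower negative regulators and 1 higher STAT3 target. Limma on log2(TPM + 0.1) called 1 member higher (Il6ra) and passed 2 higher and 0 lower negative regulators and 1 higher STAT3 target. DESeq2 passed 1 higher gene among the other ligands, Il27, which edgeR's filter had left out. Beyond these constructions, the cause was not tested.

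Leaving out single libraries called 0 to 1 members as higher (Il6ra without control replicate 3), and passed 1 to 2 kinases, STATs and adaptors as higher (Grb2 without miR-322/-503 replicate 1), 0 to 1 negative regulators as lower (Socs5) and 1 to 2 STAT3 targets as higher. The direction of Il6 turned without miR-322/-503 replicate 3 (-0.29, leave-one-out range -0.29 to 0.31), and that of Il6st without control replicate 1 (0.043), control replicate 2 (0.092) or miR-322/-503 replicate 1 (0.16, range -0.23 to 0.16). Neither passed the test in any alternative. With the replicate number as a block, which the pairing check did not call for, 1 member was higher and 5 were lower, as without it, 2 negative regulators (Socs5 and Pias1) and 10 STAT3 targets (with Myc and Cebpb added) were lower, and 2667 genes were higher and 3066 lower. Counts per read pair, chosen after the data were seen, changed no member's call. Medians of neighbouring genes moved by more than their spread in 20 of 80 alternatives. With 3 libraries per group the ratios cannot reach an exact p below 0.1, and the low counts of Il6 and Il11 limit the precision of their folds.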
